A study of Mus musculus with 6 samples.

Results

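Expression of Ubxn1, of the ATPase p97 (gene Vcp) and of 8 further genes that work with p97 or beside it was described in muscle of ovariectomized female mice with and without 17β-estradiol (E2). The members were Vcp, Nploc4, Nsfl1c, Ubxn1, Ubxn2a, Ubxn4, Ubxn6, Faf1, Faf2 and Stub1, named by gene symbol and measured by every probe set, a group of short array probes for a transcript, that the platform annotation assigns to that gene alone. These were 16 of the 45101 probe sets of the array, with 1 probe set for 5 genes and more than 1 for the other 5, and 0 probe sets that list a member beside a second gene. C57BL/6 mice were ovariectomized at 4 months of age and received either placebo pellets (OVX, 3 arrays) or pellets holding 0.18 mg of E2 for release over 60 days (OVX + E2, 3 arrays), and muscle was taken at the end of the 60 days. Both groups lacked ovaries, and a group with intact ovaries was not analysed here. The sources do not tell whether each array came from its own mouse, so every p-value rests on a spread between samples that may be technical.

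The paper gives soleus as the muscle and the sample labels give left ventricle. Genes of skeletal muscle were bright on these arrays and genes restricted to heart were not, with 12 of 14 and 0 of 10 genes in the top 5% of all probe sets by their brightest probe set. Fast-fibre genes set 2 arrays apart. Averaged over the 12 genes of that list and set against their mean over all 6 arrays, they stood at −1.22 on OVX + E2 replicate 3 and at 0.72 on OVX replicate 3, while the remaining 4 arrays lay between −0.16 and 0.28, all on the log2 scale. The averages on the 2 arrays numbered 3 rest largely on Myh4, Actn3, Pvalb and Mybpc2. Myh4 read 13.35, 12.60 and 7.78 in OVX + E2, while Tnnt3 of the same list read 13.39, 13.25 and 13.01. The differences of the members are therefore also given without both arrays numbered 3.

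p97 is an ATPase of the AAA family that pulls ubiquitinated proteins out of membranes, complexes and filaments and hands many of them to the proteasome. Its cofactors decide where it works: many of them bind p97 through a UBX domain, which is folded like ubiquitin, and several also bind ubiquitin chains on the client. In muscle, p97 is known to extract proteins from the contractile apparatus during atrophy, and inherited mutations of human VCP cause a myopathy with inclusion bodies. Stub1 encodes CHIP, a ubiquitin ligase that binds Hsp70 and Hsp90 and marks their misfolded clients.

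The promoters of 4 members are shown because they belong to the genes the results turn on, namely Ubxn1, Stub1 and Vcp, which were lower with E2, and Faf2, which was not. Each window runs from 250 bases before the annotated start of the gene to 50 after it, is written 5′ to 3′ on the strand of the gene and comes from RefSeq, build GRCm38.p6. Capitals mark the letters GGTCA (a half-site of the estrogen response element), CCAAT (the CCAAT box) and GGGCGG (the GC box), each searched on both strands.
Ubxn1, chr19:8871298-8871597, plus strand: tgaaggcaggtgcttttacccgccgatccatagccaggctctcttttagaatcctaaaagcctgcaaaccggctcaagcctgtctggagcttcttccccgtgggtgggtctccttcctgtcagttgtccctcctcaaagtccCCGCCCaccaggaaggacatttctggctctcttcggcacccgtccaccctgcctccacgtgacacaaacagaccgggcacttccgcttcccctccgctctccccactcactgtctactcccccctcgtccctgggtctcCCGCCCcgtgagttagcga
Stub1, chr17:25832870-25833169, minus strand: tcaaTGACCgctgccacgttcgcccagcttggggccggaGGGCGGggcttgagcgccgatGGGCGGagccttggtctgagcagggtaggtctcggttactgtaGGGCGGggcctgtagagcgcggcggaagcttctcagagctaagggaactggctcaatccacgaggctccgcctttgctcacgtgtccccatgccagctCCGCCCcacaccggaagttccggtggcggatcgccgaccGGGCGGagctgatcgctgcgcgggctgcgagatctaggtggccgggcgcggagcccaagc
Vcp, chr4:43000458-43000757, minus strand: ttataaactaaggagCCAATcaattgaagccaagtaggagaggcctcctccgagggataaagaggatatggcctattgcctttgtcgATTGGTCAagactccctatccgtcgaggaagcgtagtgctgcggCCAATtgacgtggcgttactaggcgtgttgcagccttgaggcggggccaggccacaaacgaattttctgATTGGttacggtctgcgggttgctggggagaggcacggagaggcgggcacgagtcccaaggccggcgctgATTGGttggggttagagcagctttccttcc
Faf2, chr13:54621534-54621833, plus strand: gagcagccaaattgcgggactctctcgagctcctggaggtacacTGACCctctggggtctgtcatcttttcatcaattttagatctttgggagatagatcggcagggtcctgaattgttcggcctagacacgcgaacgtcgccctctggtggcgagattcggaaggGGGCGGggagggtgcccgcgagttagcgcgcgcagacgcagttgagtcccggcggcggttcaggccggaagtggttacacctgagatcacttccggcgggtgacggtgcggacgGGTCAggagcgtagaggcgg
All 10 genes had a promoter in the table, 12 windows in all because Ubxn6 has 3. The full element, searched as GGTCA, any 3 bases and TGACC, was in 0 of the 12 windows and in 0.0700% of all 32851 promoters. The half-site was in 6 of the 12, of 5 genes, and in 40.5% of all promoters. The window of Ubxn1 held none, those of Stub1 and Vcp held 1 each and that of Faf2 held 2. The GC box was in 9 of the 12 windows, of 7 genes, and in 35.7% of all promoters. It had 5 copies in the window of Stub1 and in 1 of those of Ubxn6, a number reached by 2.71% of all promoters. The share of G and C was 60.3% in the window of Ubxn1, 68.3% in Stub1, 55.7% in Vcp and 61.3% in Faf2. Its median over all promoters was 52.7%, and the counts were not corrected for it. The CCAAT box was in 4 of the 12, of 3 genes, and in 37.4% of all promoters. The window of Vcp held 5 CCAAT boxes, a number reached by 0.271% of all promoters, and 1 of them overlaps its half-site in the run ATTGGTCA. These are matches of letters, and no match says only that the letters are not in the window.

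Most members were lower in OVX + E2. The difference, given throughout as OVX + E2 minus OVX on the log2 scale, was below 0 in 15 of the 16 probe sets, against 52.3% of all probe sets, with a median of −0.21 against 0.00 over all (−0.0049). In 10 of the 16 every OVX + E2 array lay below every OVX array, which was so for 11.4% of all probe sets. At an unadjusted p under 0.05 from limma, 9 of the 16 were lower and 0 higher, against 9.43% and 4.35% of all. At the study's unadjusted threshold of 0.001, 2 of the 16 passed, both lower, Ubxn1 and 1 of the probe sets of Stub1, and 0.197% of all probe sets passed as lower. Both genes stand in the study's own list of regulated probe sets, which was made from these arrays, so their calls are no independent evidence. After Benjamini-Hochberg adjustment over all probe sets in limma, 0 passed at 0.05, and the smallest adjusted p of a member was 0.308, which was also the smallest of the whole array. In whole muscle, fewer cells of a type and less RNA per cell cannot be told apart.

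The brightness of a probe set moved with this difference. Of the 16 members, 14 had a mean log2 value between 8 and 12, and among the 8293 probe sets of that range 90.3% were below 0, 33.5% had no overlap on the lower side and 32.7% were lower at a p under 0.05. The median difference of that range was −0.13. Each member was therefore also set against the median of all probe sets in its own range of 1 log2 unit. The members lay below that median in 10 of 16 cases, and the median of this excess over all 16 was −0.07. The excess was furthest below 0 for Ubxn1 (−0.24), Nploc4 (−0.23), Vcp (−0.20 and −0.15) and 1416580_a_at of Stub1 (−0.17), and it was −0.10 or nearer to 0 for the rest. It was above 0 for all 3 probe sets of Ubxn4, both of Faf1 and that of Faf2, from 0.01 to 0.12. After cyclic loess, a normalization that removes a dependence on brightness, 10 of the 16 were below 0 (51.2% of all probe sets) with a median of −0.09. Both probe sets of Vcp, Nploc4, Ubxn1 and 1416580_a_at of Stub1 were then lower at 0.05, 5 in all (4.02% of all), each of them among the 9 above, and 0 passed at 0.001 (0.0310% of all were lower there). Quantile normalization gave the same 5 (3.33% of all), with 10 of 16 below 0 and 0 at 0.001 (0.0200% of all). Median centring, which leaves the dependence on brightness in place, gave 3 at 0.001 against 0.359% of all.

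**Figure D1:**
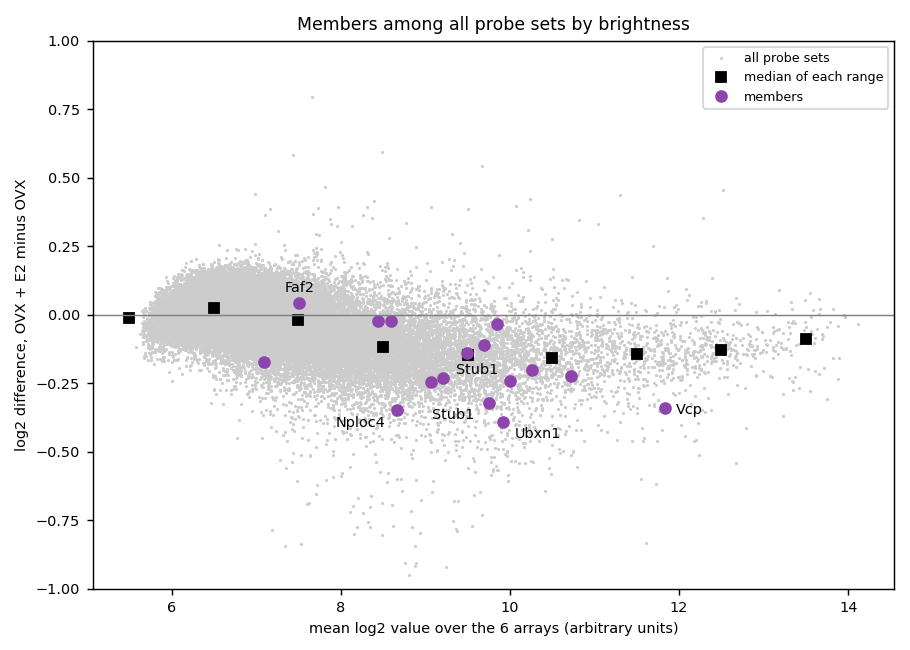
Mean log2 value over the 6 arrays (horizontal axis, arbitrary units) and log2 difference, OVX + E2 minus OVX (vertical axis), with member probe sets as 16 purple points, the rest of the array in grey and medians by range of brightness as black squares; 12 probe sets beyond a difference of 1 fall outside the axes. Ubxn1, Vcp, Nploc4 and Stub1 lie below the squares, and Faf2 lies just above 0.

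Vcp, the ATPase itself (chr4:42979964-43000507, GRCm38.p6), was lower with E2 in both of its probe sets. The bright one, 1423030_at, read 11.91, 12.01 and 12.12 in OVX against 11.75, 11.71 and 11.53 in OVX + E2. All OVX arrays lay above all OVX + E2 arrays, and the highest and the lowest value were those of the 2 arrays numbered 3. The log2 difference was −0.34 (standard error 0.076, 95% interval −0.52 to −0.16), a fold of 0.789, with an unadjusted p of 0.00263 from limma. The dim one, 1457588_at, read 7.06, 7.30 and 7.19 in OVX against 7.06, 7.04 and 6.93 in OVX + E2. The groups were apart by only 0.0087, between OVX replicate 1 and OVX + E2 replicate 1. Its difference was −0.17 (standard error 0.067), and the scale of these values compresses differences of dim probe sets. After cyclic loess the differences were −0.20 and −0.19, so those of the 2 probe sets came closer together. Without both arrays numbered 3 they were −0.22 and −0.13, the first of them moved by over 1.5 times.

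Nploc4 encodes the partner of Ufd1 that brings p97 to ubiquitin chains, and Nsfl1c encodes p47, the cofactor for the fusion of Golgi and endoplasmic reticulum membranes. Nploc4 (chr11:120379798-120437700) read 8.86, 8.70 and 8.97 in OVX against 8.56, 8.66 and 8.27 in OVX + E2. The groups did not overlap, but OVX + E2 replicate 3 was well below the other arrays of its group. The difference was −0.35 (standard error 0.11, 95% interval −0.61 to −0.09), with an unadjusted p of 0.0153 from limma. It was −0.23 after cyclic loess, −0.24 without OVX + E2 replicate 3 and −0.17 without both arrays numbered 3. Nsfl1c (chr2:151494182-151511310) read 10.36, 10.30 and 10.44 in OVX against 10.17, 10.29 and 10.03 in OVX + E2. The lowest OVX array and the highest OVX + E2 array, both replicate 2, were 0.014 apart. The difference of −0.20 (standard error 0.070) was close to the −0.16 of probe sets of like brightness, and it was −0.05 after cyclic loess and −0.10 without both arrays numbered 3.

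Ubxn1 encodes a cofactor with an N-terminal domain that binds ubiquitin and a UBX domain that binds p97, and it had the smallest p of the members, rank 35 among all probe sets. Its gene spans 4.12 kb (chr19:8871548-8875666), and its probe set 1436342_a_at read 10.25, 10.03 and 10.08 in OVX against 9.79, 9.70 and 9.69 in OVX + E2. The gap between the groups, 0.237, was wider than the range within either group. On the log2 scale Ubxn1 fell by 0.39 (95% interval −0.54 to −0.24, standard error 0.064), a fold of 0.763, and limma gave an unadjusted p of 0.000464 and an adjusted p of 0.308. Without both arrays numbered 3 the difference was again −0.39, so these 2 arrays did not set its size. The call at 0.001 did depend on the arrays. It was kept when OVX replicate 1 or 2 was left out. It was lost when OVX replicate 3 was left out (unadjusted p of 0.00101 from limma), and likewise for each OVX + E2 array, at 0.00119, 0.00263 and 0.00238 for replicates 1, 2 and 3. After cyclic loess the difference was −0.24 with an unadjusted p of 0.00434 from limma, and after quantile normalization it was −0.22 with a p of 0.0127, so the call was lost under both.

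**Figure D2:**
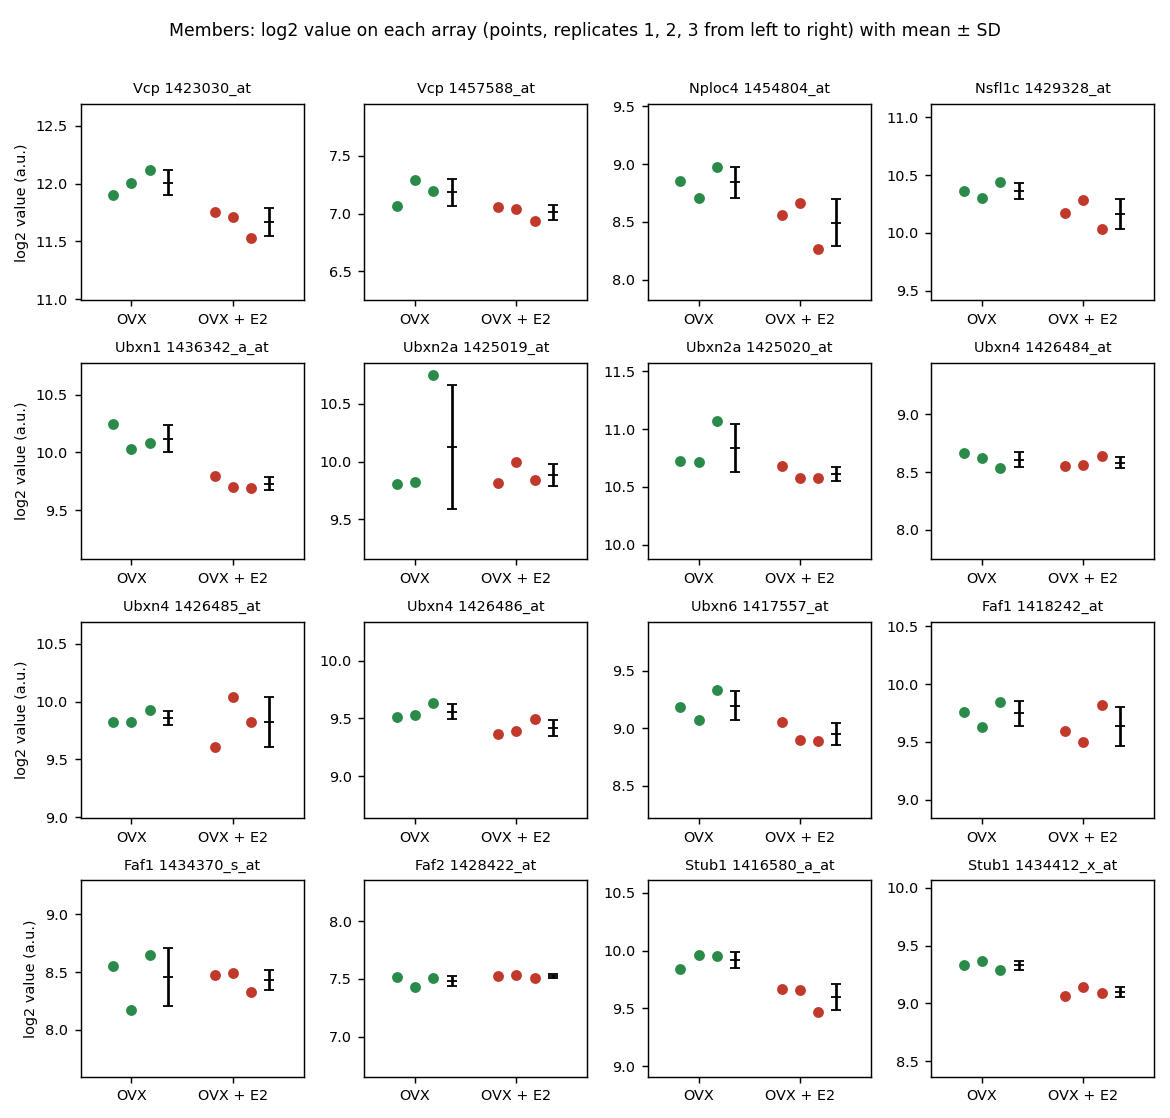
Log2 value (vertical axes, arbitrary units, all of the same span) of the 16 member probe sets on each array, OVX in green and OVX + E2 in red, with replicates 1, 2 and 3 from left to right and the mean ± SD of the 3 arrays in black. Ubxn1, both probe sets of Stub1 and the bright probe set of Vcp show the widest gaps between the groups, and Faf2, Faf1 and most of Ubxn4 overlap.

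The UBX cofactors other than Ubxn1 were less alike. Ubxn6 (chr17:56067045-56079333), which takes part in the sorting of endosomal and damaged lysosomal cargo, read 9.18, 9.07 and 9.33 in OVX against 9.06, 8.90 and 8.89 in OVX + E2. The groups touched within 0.019, and the difference was −0.25 (standard error 0.075), or −0.11 after cyclic loess and −0.15 without both arrays numbered 3. Ubxn2a (chr12:4876814-4907553), linked to the trafficking of nicotinic acetylcholine receptors, had 2 probe sets with like differences and unlike spread. The probe set 1425019_at read 9.81, 9.83 and 10.75 in OVX against 9.82, 9.99 and 9.84 in OVX + E2. OVX replicate 3 alone set that group mean, and the difference went from −0.24 to 0.07 without it. The probe set 1425020_at read 10.72, 10.71 and 11.07 in OVX against 10.68, 10.58 and 10.57 in OVX + E2. Here too OVX replicate 3 was the highest array, and the difference of −0.22 (standard error 0.098) became −0.11 without it. Without both arrays numbered 3 the differences of the 2 probe sets were 0.09 and −0.09.

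Ubxn4 and Faf2 encode the UBX cofactors that sit in the endoplasmic reticulum membrane and hold p97 there for the degradation of proteins drawn from it, and Faf2 also acts at lipid droplets. Ubxn4 (chr1:128243898-128279378) had 3 probe sets that disagreed. The probe set 1426486_at read 9.51, 9.53 and 9.63 in OVX against 9.36, 9.39 and 9.50 in OVX + E2, a difference of −0.14 (standard error 0.053) with no overlap. The probe sets 1426484_at and 1426485_at overlapped between the groups, with differences of −0.02 (95% interval −0.14 to 0.09) and −0.03 (95% interval −0.28 to 0.21). After cyclic loess the 3 differences were 0.09, 0.12 and 0.0046, in the order 1426484_at, 1426485_at and 1426486_at, so the sign of Ubxn4 was not settled. Without both arrays numbered 3 they were −0.09, 0.0031 and −0.14 in that order. Faf2 (chr13:54621784-54664063) read 7.51, 7.43 and 7.50 in OVX against 7.53, 7.54 and 7.51 in OVX + E2. It was the only member with a difference above 0 as deposited, 0.04 (95% interval −0.05 to 0.13), and 0.06 without both arrays numbered 3, and no test threshold was passed. Faf1 (chr4:109676627-109963960), a cofactor first known as a partner of the death receptor Fas, overlapped between the groups in both probe sets. The differences were −0.11 (95% interval −0.33 to 0.11) for 1418242_at and −0.02 (95% interval −0.31 to 0.26) for 1434370_s_at, whose name marks probes shared with other transcripts, and they were 0.04 and 0.08 after cyclic loess and −0.15 and 0.12 without both arrays numbered 3.

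Stub1 (chr17:25830634-25832919), the ligase CHIP, was lower with E2 in both probe sets. The probe set 1416580_a_at read 9.84, 9.96 and 9.95 in OVX against 9.67, 9.66 and 9.47 in OVX + E2. The probe set 1434412_x_at read 9.33, 9.37 and 9.29 in OVX against 9.06, 9.14 and 9.09 in OVX + E2, and its name marks probes that may also bind other transcripts. The groups did not overlap in either, with gaps of 0.176 and 0.144. The gap was narrower than the range within OVX + E2 in the first and wider than the range within either group in the second. The second fell by 0.23 (standard error 0.041, log2 scale), for which limma gave an unadjusted p of 0.000805, and the first, with the larger difference of −0.32 (standard error 0.066) and a p of 0.00164, missed the threshold. The call of the second was lost when any 1 of the 6 arrays was left out, with unadjusted p from 0.00121 to 0.00465, while its difference stayed between −0.25 and −0.21. After cyclic loess the differences were −0.17 and −0.09, and without both arrays numbered 3 they were −0.24 and −0.25.

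**Figure D3:**
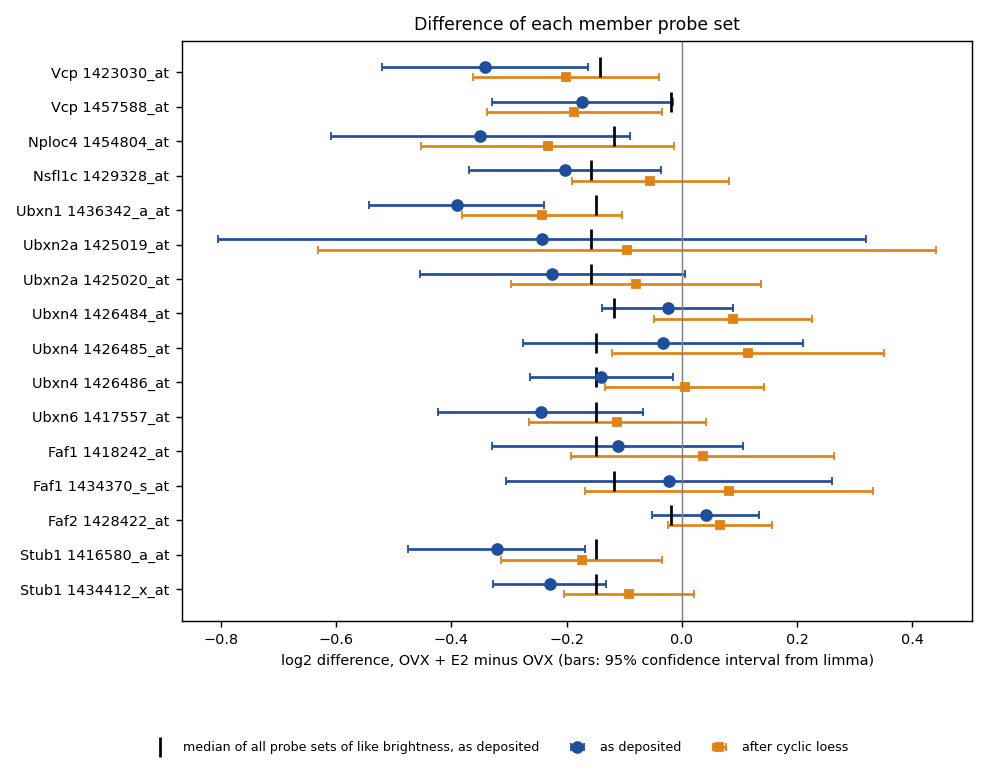
Log2 difference, OVX + E2 minus OVX (horizontal axis), of each member probe set with its 95% confidence interval from limma, as deposited in blue and after cyclic loess in orange, and with the median difference of all probe sets of like brightness as a black tick. After cyclic loess the intervals of Ubxn1, both probe sets of Vcp, Nploc4 and Stub1 1416580_a_at stay below 0, and those of Ubxn4, Faf1 and Faf2 include 0.

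The arrays numbered 3 held most of the extremes. OVX replicate 3 was the highest array in 9 of the 16 probe sets, against 21.5% of all probe sets, and OVX + E2 replicate 3 was the lowest in 8 of the 16, against 25.6%. In 5 of the 16 both held, against 10.3% of all, namely in the bright probe set of Vcp, Nploc4, Nsfl1c, Ubxn6 and 1425020_at of Ubxn2a. Set against their mean over the 6 arrays, the members had a median of 0.07, 0.03 and 0.17 in OVX and of −0.09, −0.06 and −0.16 in OVX + E2, replicates 1 to 3. Fast-fibre genes had the same 2 arrays at their ends, with 12 of 12 below 0, a median difference of −0.28 and a mean level of 12.5 to 13.1 in OVX and 11.2 to 12.7 in OVX + E2, and 3 of the 12 were lower at an unadjusted p under 0.05 from limma, against 13.0% of all genes with 1 probe set each. After cyclic loess these genes were still below 0 in 12 of 12, with a median of −0.15, and 0 were lower at 0.05. Their part in the differences of the members was not tested. Without both arrays numbered 3, 12 of the 16 members were below 0 (50.8% of all probe sets) and the median was −0.14. Ubxn1, both probe sets of Stub1, 1423030_at of Vcp, Nploc4 and 1426486_at of Ubxn4 were then lower at 0.05, 6 in all, against 7.54% of all probe sets, and 0 passed at 0.001 (0.0820% of all). Markers of fibroblasts were below 0 in 5 of 5, 2 of them at 0.05, with a median difference of −0.28. Of these markers 4 had a mean log2 value between 8 and 12, where 90.3% of all probe sets were below 0 and 32.7% were lower at 0.05. After cyclic loess 5 of 5 were below 0, with a median of −0.14, and 0 were lower at 0.05. Fibroblast markers had a mean level of 9.24 to 9.71 in OVX and 9.07 to 9.39 in OVX + E2, and their part was not tested either. Over all genes with 1 probe set each, 54.0% were below 0 as deposited and 50.8% after cyclic loess. Endothelial markers were below 0 in 6 of 7 genes with a median difference of −0.06, those of macrophages in 5 of 6 with −0.05, and those of Schwann cells and nerve in 3 of 3 with −0.14. Those of satellite cells were below 0 in 2 of 4 (median −0.03), slow-fibre genes in 5 of 10 (median 0.01) and those of fat cells in 1 of 5 (median 0.08). Of the genes in these 6 lists 0 passed at an unadjusted p under 0.05 from limma. After cyclic loess endothelial markers were below 0 in 3 of 7 (median 0.01), macrophage markers in 4 of 6 (median −0.03). Schwann cell and nerve markers were then below 0 in 2 of 3 (median −0.07) and satellite cell markers in 3 of 4 (median −0.03). Slow-fibre genes were then below 0 in 1 of 10 (median 0.14) and fat cell markers in 2 of 5 (median 0.14).

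**Figure D4:**
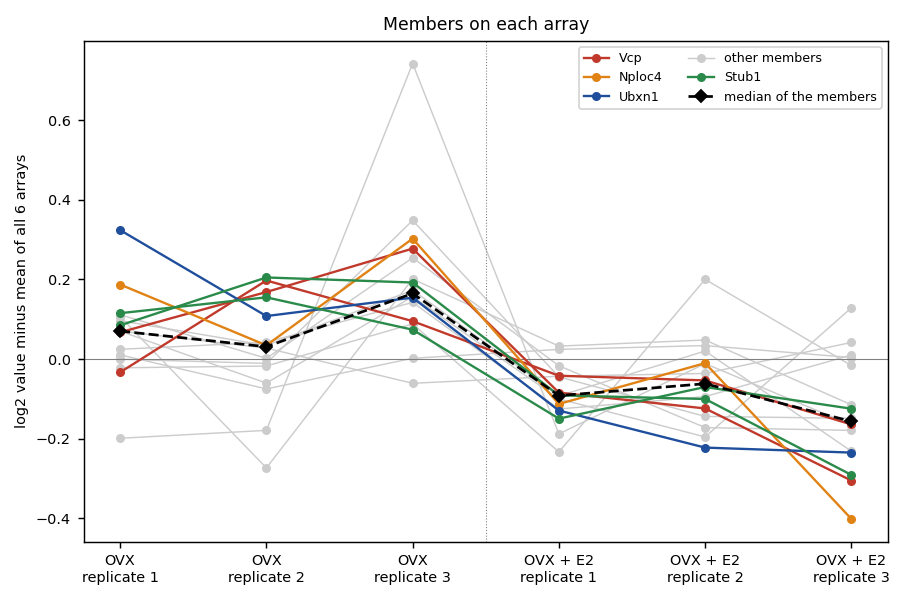
Log2 value minus the mean over the 6 arrays (vertical axis) of each member probe set on each array (horizontal axis, OVX left and OVX + E2 right of the dotted line), with Vcp, Nploc4, Ubxn1 and Stub1 in colour, the other members in grey and the median of the members as black diamonds; lines only join the points of a probe set. The median lies at 0.17 on OVX replicate 3 and at −0.16 on OVX + E2 replicate 3.

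The profile of Ubxn1 over the arrays resembled that of other members to unequal degrees. Over the 6 arrays, Pearson's r with Ubxn1 was 0.87 and 0.82 for the probe sets of Stub1, 0.83 for Ubxn6, 0.79 and 0.56 for Vcp, 0.79 for Nploc4 and 0.75 for Nsfl1c. It was lower for the probe sets of Ubxn2a (0.23 and 0.60), Ubxn4 (0.33, −0.04 and 0.62) and Faf1 (0.42 and 0.25), and it was −0.36 for Faf2. These are descriptions over points that share the contrast and the normalization, and 1.68% of all probe sets had an r over 0.9, while the highest member, 1434412_x_at of Stub1, stood at rank 1303 of all. The 5 genes with the most similar profile were Ints6 (0.995), Slc35b4 (0.995), Ipo4 (0.994), Mrpl52 (0.992) and Crk (0.988). Ipo4, an importin, read 10.05, 9.91 and 9.95 in OVX against 9.73, 9.72 and 9.67 in OVX + E2, so OVX replicate 1 was highest as for Ubxn1.

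Genes that work around p97 and Stub1 were read from 5 lists of textbook members, with 1 probe set per gene, that of the widest interquartile range. Over all 18194 genes measured in that way, 54.0% were below 0, 13.0% were lower and 6.01% higher at an unadjusted p under 0.05 from limma, and 0.390% were lower at 0.001. No adjusted p of a listed gene was under 0.308. After cyclic loess 50.8% of the 18194 genes were below 0, and 4.02% of all probe sets were lower at 0.05. Proteasome shuttle receptors carry ubiquitinated proteins to the proteasome, and that list also held Sqstm1 and Nbr1, which are better known as receptors of autophagy. Its 6 measured genes were all below 0 with a median of −0.26, and 4 were lower at 0.05, neither Sqstm1 nor Nbr1 among them. All 6 lie in the brightness range of 8 to 12, where 90.3% of probe sets were below 0 and 32.7% were lower at 0.05, and after cyclic loess 6 were below 0 and only Rad23b was lower at 0.05. Rad23b, which binds ubiquitin chains and the proteasome at once, read 9.18, 9.27 and 9.32 in OVX against 9.05, 8.93 and 8.98 in OVX + E2, with no overlap. Its log2 difference was −0.27 with an unadjusted p of 0.00133 from limma, and those of the ubiquilins Ubqln2 and Ubqln1 were −0.25 and −0.20. Genes of dislocation from the endoplasmic reticulum were below 0 in 12 of 13, with a median of −0.18, and 5 were lower and 1 higher at 0.05. After cyclic loess 11 of 13 were below 0, and 3 were lower at 0.05, among them Sel1l but not Aup1 or Rhbdd1. The others were Erlec1 and Os9, read from dim probe sets with OVX means of 7.16 and 7.31. Brighter probe sets of Erlec1 and Os9, with means of 8.40 and 8.33, were not read. As deposited, Sel1l (−0.28), Aup1 (−0.15) and Rhbdd1 (−0.12) had the smallest p of that list. They code for the scaffold of a membrane ligase, a recruiter of a conjugating enzyme and a rhomboid protease. Sel1l read 9.68, 9.58 and 9.70 in OVX against 9.46, 9.33 and 9.33 in OVX + E2, so its groups stood apart.

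Of the 13 other adaptors of p97 measured, 5 were below 0, with a median of 0.04, and 1 was lower and 2 higher at 0.05. Their probe sets were mostly dimmer than those of the members, 11 of 13 with a mean log2 value below 8, where the median difference of all probe sets was 0.02 (6 to 7) and −0.02 (7 to 8), and no test set them against the members. After cyclic loess 0 were lower and 1, Ubxn7, was higher at 0.05. Plaa, which binds p97 and ubiquitin, had a log2 difference of −0.20, and the UBX genes Ubxn7 and Ubxn8 had 0.14 and 0.09, each with no overlap between the groups. The Ubxn7 probe set had means of 6.02 in OVX and 6.16 in OVX + E2, and that of Ubxn8 had 6.70 and 6.80. Both lie below the array medians of 6.90 to 6.93, and whether they were above background was not analysed. A brighter probe set of Ubxn7, with a mean of 7.47, was not read. Ufd1, the partner of Nploc4, had −0.22 with overlapping groups. Of the 7 enzymes that act on p97 clients 5 were below 0, with a median of −0.11, and 2 were lower and 1 higher at 0.05, against 0 and 1 after cyclic loess. Ngly1, the glycanase that strips sugars from extracted proteins, had a log2 difference of −0.19, Ube4b, a chain-elongating ligase, had −0.13, and Yod1, a deubiquitinase that attends p97, had 0.13. The Yod1 probe set was also below the array medians, with means of 6.66 in OVX and 6.79 in OVX + E2. Of 20 measured partners of Stub1, chaperones and conjugating enzymes, 17 were below 0 with a median of −0.11, and 4 were lower at 0.05. After cyclic loess 9 of the 20 were below 0, and only Ube2n and Ube2v1 were lower at 0.05. Ube2v1, the inactive partner of Ube2n in making ubiquitin chains, was the only gene of the 5 lists at 0.001. It read 10.03, 9.96 and 10.05 in OVX against 9.73, 9.79 and 9.71 in OVX + E2, a log2 difference of −0.27 with an unadjusted p of 0.000410 from limma, or −0.12 after cyclic loess. Ube2n had −0.23, the same after cyclic loess, and Hspbp1, an exchange factor of Hsp70, had −0.15. The Ube2n probe set was dim, with means of 7.36 in OVX and 7.13 in OVX + E2. A brighter probe set of Ube2n, with a mean of 8.74, was not read. After cyclic loess the list medians were −0.13 for the shuttle receptors, −0.08 for dislocation, −0.04 for the enzymes, 0.05 for the adaptors and 0.02 for the partners of Stub1.

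**Figure D5:**
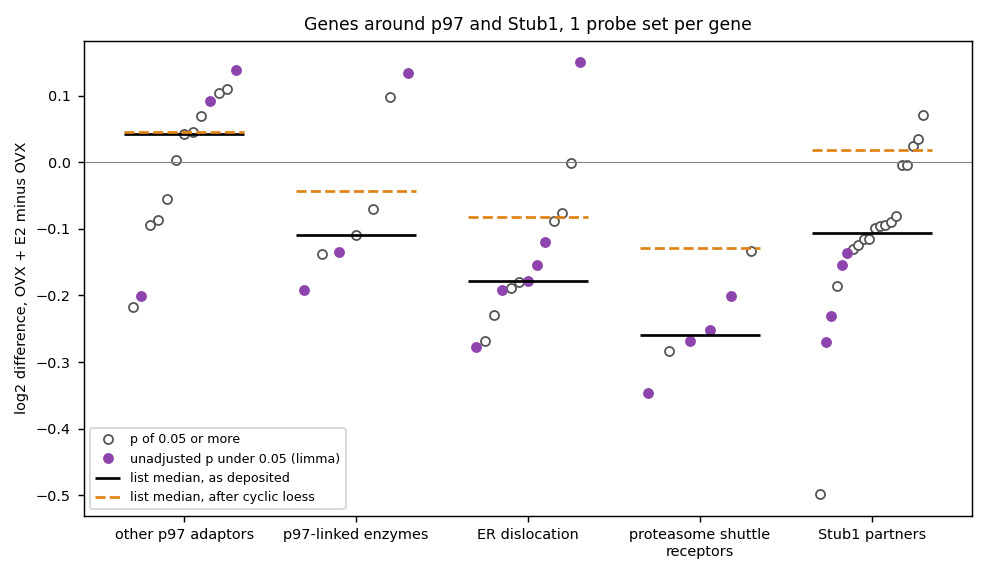
Log2 difference, OVX + E2 minus OVX (vertical axis), of the genes of the 5 lists, 1 point per gene, filled where the unadjusted p from limma was under 0.05, with the list median as deposited (black line) and after cyclic loess (orange dashed line). The 6 genes of the shuttle receptor list all lie below 0, and the other adaptors of p97 lie on both sides of it.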

How the data were processed

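RNA of 6 samples, 3 OVX and 3 OVX + E2, was hybridized to Affymetrix mouse genome arrays, 1 per sample. The authors corrected the background, normalized the scans with variance stabilization and normalization, summarised probes by median polish in R 2.14.2 (a version the submitters' processing notes name too), and deposited log2 values in arbitrary units. Samples were grouped by the treatment label. Arrays have no read depth, and their number limits the precision.

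limma 3.58.1 (lmFit, eBayes; R 4.3.3) tested the deposited log2 values of all 45101 probe sets, of which 34958 carry a single gene symbol, at the study's threshold, an unadjusted two-sided p of 0.001, and p was also adjusted over all of them after Benjamini-Hochberg. The test was tried on simulated data. Named genes are the members, the 5 genes most like Ubxn1 and cell markers. Up to 3 genes with the smallest p of each of the 5 pathway lists are named too. Ufd1, Sqstm1, Nbr1, Erlec1 and Os9 were added after their values were seen. Members and lists were chosen with earlier results of these data known. Positions are those of RefSeq, GRCm38.p6. Counts over a list cover its genes with a probe set of their own, and other genes were not analysed here. Quantile normalization, cyclic loess (3 iterations), median centring, a filter on dim probe sets, an intensity trend, the replicate number as a block and leaving out each array were tried, and the fit without both arrays numbered 3 was chosen after seeing the data. The motifs were chosen after the data had been seen. RT-qPCR and immunoblots were not analysed here.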

Additional observations from a re-analysis of the deposited data

How the results depend on the processing

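The number of member probe sets at 0.001, 2 as deposited, was 0 after quantile normalization, 0 after cyclic loess, 0 with an intensity trend, 0 without both arrays numbered 3, 1 among probe sets brighter than the median, 1 with the replicate number as a block, and 0 to 1 when an array was left out. With median centring it was 3, as 1416580_a_at of Stub1 passed too. The number over all probe sets, 96 as deposited, was 31, 31, 39, 37, 30 and 21 in the order of the first 6 settings, 164 after median centring and 19 to 76 when an array was left out. Of these 89 were lower as deposited, 14 after cyclic loess and 9 after quantile normalization. The paper reports more regulated probe sets at the same unadjusted threshold than were found here, and the cause was not tested. The median difference of the members, −0.21, was −0.072 after quantile normalization, −0.086 after cyclic loess, −0.14 without both arrays numbered 3 and −0.23 to −0.14 when an array was left out, the last without OVX replicate 3. Their median excess over probe sets of like brightness, −0.07, was −0.094 to 0.0023 when an array was left out, the last again without OVX replicate 3. The number below 0, 15, was 10 to 15 in every setting.

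Vcp, Nploc4, Nsfl1c, Ubxn1, Ubxn6, 1425020_at of Ubxn2a, Stub1 and Faf2 kept their sign in every setting. For 1426484_at, 1426485_at and 1426486_at of Ubxn4 and 1418242_at and 1434370_s_at of Faf1 the difference turned positive, to 0.10, 0.14, 0.030, 0.059 and 0.10 after quantile normalization and to 0.089, 0.12, 0.0046, 0.036 and 0.082 after cyclic loess. Without both arrays numbered 3 it was 0.0031 for 1426485_at, 0.12 for 1434370_s_at and 0.089 for 1425019_at of Ubxn2a. When an array was left out it ranged from −0.062 to 0.0041 for 1426484_at, −0.14 to 0.076 for 1426485_at, −0.165 to 0.072 for 1434370_s_at and −0.40 to 0.067 for 1425019_at. The cause was not tested. The deviations of same-numbered arrays correlated by −0.13, −0.20 and −0.34, and those of unlike-numbered arrays by −0.24 to 0.33. These values gave no sign that the replicate numbers pair the samples, but such correlations cannot settle the design. With the block Ubxn1 passed and 1434412_x_at of Stub1 did not. Whether a probe set was above background was not analysed here, and the 2 dimmest members, 1457588_at of Vcp and Faf2, lie where the scale compresses differences.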
